A study of Mus musculus with 8 samples.

Results

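The undifferentiated BMAL1 peaks are 12009 genomic sites, 6534 in culture UNDIFF6 and 5475 in culture UNDIFF8, of 211109 peaks called in the whole series. They were taken as every entry of the 2 peak lists deposited for undifferentiated cultures, each called against the input DNA of its own culture. HC11 cells, an established mouse line from mammary epithelium, make milk proteins when given lactogenic hormones. The UNDIFF cultures, which the study also calls UNDIFF1 and UNDIFF2, were grown to confluence, kept for 48 h without epidermal growth factor (EGF) in 10% calf serum with insulin at 5 µg/mL, and fixed with 1% formaldehyde. The DIFF cultures (DIFF1 and DIFF2) went through the same 48 h and then had 96 h with prolactin (5 µg/mL) and dexamethasone (0.1 µM). They had the same 10% calf serum, insulin and 1% formaldehyde, and they serve here as background. The 4 ChIP experiments were independent, with 2 cultures per state, and all cultures are of a single cell line. No expression values belong to these libraries, so the labelled cell type was not checked against marker genes.

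BMAL1 is a basic helix-loop-helix transcription factor of the circadian clock. It pairs with CLOCK or NPAS2 and binds the E-box CACGTG, and it turns on the period and cryptochrome genes, whose proteins feed back on the pair, and the REV-ERB and ROR genes, whose proteins act on the gene of BMAL1 itself (Arntl). In a ChIP-seq peak list, the ChIP tags count fragments pulled down with the antibody, the input tags count sonicated chromatin that was not pulled down, and the local fold compares a peak with the ChIP tags around it.

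The sites called in both UNDIFF cultures are the ones found again in a separate experiment, and the first 4 of them outside repeats, ranked by the smaller of their folds over input, are printed from the plus strand of GRCm38 (RefSeq sequence). Capitals mark the bases that the peaks of both cultures cover.
UNDIFF6, Spef2, chr15:9766430-9766624: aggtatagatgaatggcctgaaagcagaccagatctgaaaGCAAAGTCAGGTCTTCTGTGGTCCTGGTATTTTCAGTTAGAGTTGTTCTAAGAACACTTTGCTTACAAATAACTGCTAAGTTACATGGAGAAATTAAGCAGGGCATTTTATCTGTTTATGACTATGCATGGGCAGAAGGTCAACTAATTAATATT
UNDIFF6, Gm5886, chr6:133767442-133767636: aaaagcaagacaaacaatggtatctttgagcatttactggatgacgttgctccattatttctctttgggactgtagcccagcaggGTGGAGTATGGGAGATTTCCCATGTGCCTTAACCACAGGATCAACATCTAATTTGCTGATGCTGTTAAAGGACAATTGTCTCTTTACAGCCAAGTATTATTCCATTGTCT
UNDIFF6, Gm30158, chr11:111943288-111943482: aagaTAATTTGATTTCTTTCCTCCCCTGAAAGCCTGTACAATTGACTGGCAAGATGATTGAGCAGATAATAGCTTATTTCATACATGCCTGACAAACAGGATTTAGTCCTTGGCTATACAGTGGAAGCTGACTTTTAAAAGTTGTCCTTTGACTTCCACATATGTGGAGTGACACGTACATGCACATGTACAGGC
UNDIFF6, 4933430N04Rik, chr8:9015067-9015261: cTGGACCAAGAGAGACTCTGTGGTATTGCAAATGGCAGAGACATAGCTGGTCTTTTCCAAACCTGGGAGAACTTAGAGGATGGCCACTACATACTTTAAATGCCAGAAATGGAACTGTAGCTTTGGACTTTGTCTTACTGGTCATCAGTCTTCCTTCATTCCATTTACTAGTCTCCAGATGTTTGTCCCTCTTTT

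The next sequence is the shared site outside repeats that holds an E-box in both peaks, shown for that reason after its values were seen. In it and in the following sequences, capitals mark CACGTG, which reads the same on both strands.
UNDIFF6, G630064G18Rik, chr8:37097044-37097238: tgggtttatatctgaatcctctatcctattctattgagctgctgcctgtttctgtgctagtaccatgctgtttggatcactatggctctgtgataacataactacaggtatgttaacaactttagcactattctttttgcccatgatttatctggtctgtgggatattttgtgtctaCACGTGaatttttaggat

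The peaks with the most E-boxes show the motif that BMAL1 is known to bind, again on the plus strand. Each holds 2, except the last, which holds 1 and has the highest score among the UNDIFF8 peaks with 1. The peaks of D630045J12Rik, Wrn and 2610005L07Rik have their centres in repeats. Lower case does not mark repeats in the printed sequences.
UNDIFF6, D630045J12Rik, chr6:38189600-38189794: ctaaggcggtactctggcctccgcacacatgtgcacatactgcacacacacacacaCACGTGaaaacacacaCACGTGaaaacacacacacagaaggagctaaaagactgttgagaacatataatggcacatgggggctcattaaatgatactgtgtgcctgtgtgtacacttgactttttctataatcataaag
UNDIFF6, Dnah17, chr11:118101683-118101877: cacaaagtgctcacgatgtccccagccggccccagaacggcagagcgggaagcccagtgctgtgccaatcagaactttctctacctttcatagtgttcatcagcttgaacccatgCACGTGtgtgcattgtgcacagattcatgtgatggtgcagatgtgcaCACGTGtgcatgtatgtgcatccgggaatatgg
UNDIFF6, AY702102, chr2:169903712-169903906: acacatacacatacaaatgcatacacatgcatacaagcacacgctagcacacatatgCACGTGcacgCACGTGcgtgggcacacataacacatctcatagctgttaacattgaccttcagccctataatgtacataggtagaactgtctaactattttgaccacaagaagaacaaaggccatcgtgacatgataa
UNDIFF8, Svs4, chr2:164276097-164276325: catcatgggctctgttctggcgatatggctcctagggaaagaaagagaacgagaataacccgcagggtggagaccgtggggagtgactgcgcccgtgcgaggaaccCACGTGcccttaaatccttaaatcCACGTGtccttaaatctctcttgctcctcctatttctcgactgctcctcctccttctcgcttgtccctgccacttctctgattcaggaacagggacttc
UNDIFF8, Wrn, chr8:33238940-33239168: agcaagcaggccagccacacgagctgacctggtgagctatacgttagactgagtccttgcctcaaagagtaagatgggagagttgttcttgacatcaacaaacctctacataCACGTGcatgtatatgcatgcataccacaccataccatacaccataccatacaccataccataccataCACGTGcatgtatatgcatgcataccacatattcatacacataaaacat
UNDIFF8, 2610005L07Rik, chr8:20517871-20518099: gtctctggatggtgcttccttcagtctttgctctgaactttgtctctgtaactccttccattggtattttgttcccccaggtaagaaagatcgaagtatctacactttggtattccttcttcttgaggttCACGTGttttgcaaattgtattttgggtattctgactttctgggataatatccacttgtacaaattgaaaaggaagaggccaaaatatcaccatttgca

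The promoter peak with the highest score in each list is printed because clock factors are known to act at promoters. Promoters were placed at the start sites of coding and noncoding transcripts alike, and Mir7216 is a microRNA gene. No CACGTG occurs in either sequence.
UNDIFF6, Mir7216, chr17:27328157-27328351: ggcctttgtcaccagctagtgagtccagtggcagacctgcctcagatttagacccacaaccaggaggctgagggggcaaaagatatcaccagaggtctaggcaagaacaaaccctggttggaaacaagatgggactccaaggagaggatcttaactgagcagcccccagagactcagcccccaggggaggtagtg
UNDIFF8, Eif4a3l1, chr6:136327111-136327339: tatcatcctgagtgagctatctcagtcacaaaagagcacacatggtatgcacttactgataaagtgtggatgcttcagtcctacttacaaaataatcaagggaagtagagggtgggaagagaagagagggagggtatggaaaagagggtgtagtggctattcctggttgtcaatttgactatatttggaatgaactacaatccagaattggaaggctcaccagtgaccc

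At the peaks, tags were few and close to the smallest number that was called. UNDIFF6 peaks had a median of 22.9 ChIP tags (quartiles 22 and 24.4) and 7 input tags (5 and 8), with tags scaled by HOMER to equal library totals. UNDIFF8 peaks had a median of 25 ChIP tags (24 and 27) and 6.3 input tags (3.9 and 8.7). Of the UNDIFF6 peaks 52.8%, and of the UNDIFF8 peaks 51.3%, lay within 1.5 units of the lowest findPeaks score of the list, 23 in UNDIFF6 and 24 in UNDIFF8. The total behind these values, inferred from the normalized tag counts, was 80.3 M tags for UNDIFF6 and 77.1 M for UNDIFF8, and 57.5 M and 35.3 M for DIFF1 and DIFF2.

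The median fold over input was 3.41 in UNDIFF6 and 4.14 in UNDIFF8, against 4.31 in DIFF1 and 5.15 in DIFF2. On the log2 scale the UNDIFF cultures averaged 1.91 ± 0.20 and the DIFF cultures 2.24 ± 0.18 (SD, n = 2 each), a difference of -0.33. Both UNDIFF medians were below both DIFF medians (two-sided exact permutation p = 0.33, which is the smallest p that 2 against 2 allow). Of the UNDIFF6 peaks, 2169 (33.2%) were at least 4-fold over input, and of the UNDIFF8 peaks 2898 (52.9%). At least 10-fold were 150 (2.30%) in UNDIFF6 and 843 (15.4%) in UNDIFF8.

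Differences in fold between peaks followed the input tags. Across the peaks of a list, Spearman's rho between fold and input tags was -0.95 in UNDIFF6 and -0.96 in UNDIFF8, while between fold and ChIP tags it was -0.20 and -0.16. The input tags are the divisor of the fold, and the peaks of a list share their libraries, so these coefficients are descriptions. UNDIFF6 peaks from 2-fold to under 3-fold had medians of 23.4 ChIP tags and 8.5 input tags, and those of 10-fold or more 22 ChIP tags and 1.5 input tags. UNDIFF8 peaks in the same bands had 26 ChIP and 9.7 input tags, and 24.5 ChIP and 1.4 input tags. Mean GC content was 43.8% in the lowest and 41.3% in the highest of these bands in UNDIFF6, and 44.0% and 40.2% in UNDIFF8.

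**Figure D1:**
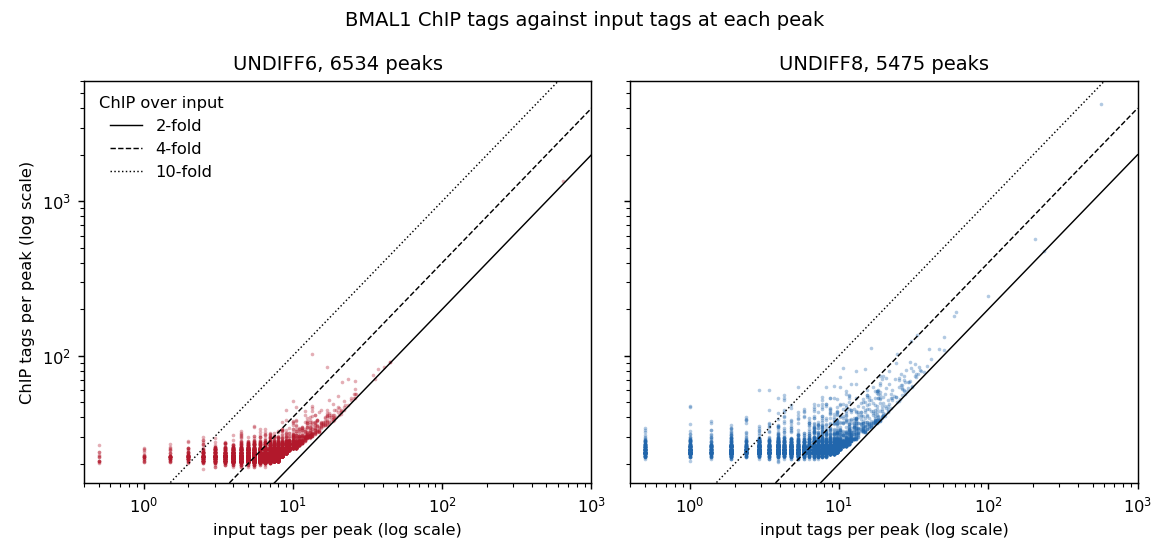
ChIP tags (y axis, log scale) against input tags (x axis, log scale) for each peak of UNDIFF6 (left) and UNDIFF8 (right), with lines at 2-fold, 4-fold and 10-fold over input. Most points form a flat band around the medians of 22.9 and 25 ChIP tags while the input reaches down to 0.5 tags.

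The highest folds belonged to peaks with input listed at 0.5 tags, which was the case for 13 peaks of UNDIFF6 and 145 of UNDIFF8. The highest in UNDIFF6, 119.6 kb downstream of the start site of the long noncoding RNA D030045P18Rik, had 26.3 ChIP tags and 0.5 input tags (fold 52.6). The highest in UNDIFF8, 28.1 kb upstream of Esp34, a gene of the exocrine gland secreted peptide family, had 34 ChIP tags and 0.5 input tags (fold 70.4). These folds rest on the lowest input value that the lists hold.

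The highest scores belonged to other peaks, with input tags above the median of their list. The UNDIFF6 peak with the highest score lay in mitochondrial DNA and had 1354 ChIP and 640.5 input tags. In UNDIFF8 it lay 138.3 kb downstream of the start site of Chl1, which encodes a neural cell adhesion protein, with 4237 ChIP and 570.2 input tags. Second in UNDIFF6 was a site nearest to the olfactory receptor gene Olfr161, in a repeat, with 103.2 ChIP and 13.5 input tags. Second in UNDIFF8 was a site 13.1 kb from Mir101c with 476.5 ChIP and 235.3 input tags. Only 24 peaks of UNDIFF6 and 128 of UNDIFF8 had more than 50 ChIP tags.

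A peak was found at the same place in both UNDIFF cultures at 95 sites. They were 1.45% of the UNDIFF6 peaks (95% Wilson interval 1.19% to 1.77%, counting error only) and 1.74% of the UNDIFF8 peaks (1.42% to 2.12%). The lists do not give the tags of one culture at the peaks of the other, so a peak found in a single list cannot be called absent from the other culture. Centres of the paired peaks lay a median of 43 bp apart and 54 of the 95 pairs were within 50 bp. With a DIFF1 peak, 39 UNDIFF6 peaks (0.597%) and 50 UNDIFF8 peaks (0.913%) overlapped, and with a DIFF2 peak 362 (5.54%) and 479 (8.75%). The DIFF2 list is far longer, with 185417 peaks against 13683 in DIFF1.

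Shared sites had higher medians than the other peaks of their list, in ChIP and in input. In UNDIFF6 they had a median of 26.8 ChIP tags and 9 input tags, against 22.9 and 6.5 at the other peaks. In UNDIFF8 they had 27.5 ChIP tags and 7.2 input tags, against 25 and 6.3. Of the 95 sites, 15 were at least 4-fold over input in UNDIFF6 (15.8%, against 33.2% of the whole list), 51 in UNDIFF8 (53.7%, against 52.9%), and 14 in both. The normalized tag counts of a site differed by less than 1.5-fold between the cultures at all 95 sites, with a ratio of UNDIFF6 to UNDIFF8 from 0.742 to 1.38. Across the sites, Spearman's rho between the cultures was 0.80 for the normalized tag count, 0.97 for the local ChIP tags, 0.44 for the input tags and 0.25 for the fold. These sites share their libraries and a calling threshold.

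**Figure D2:**
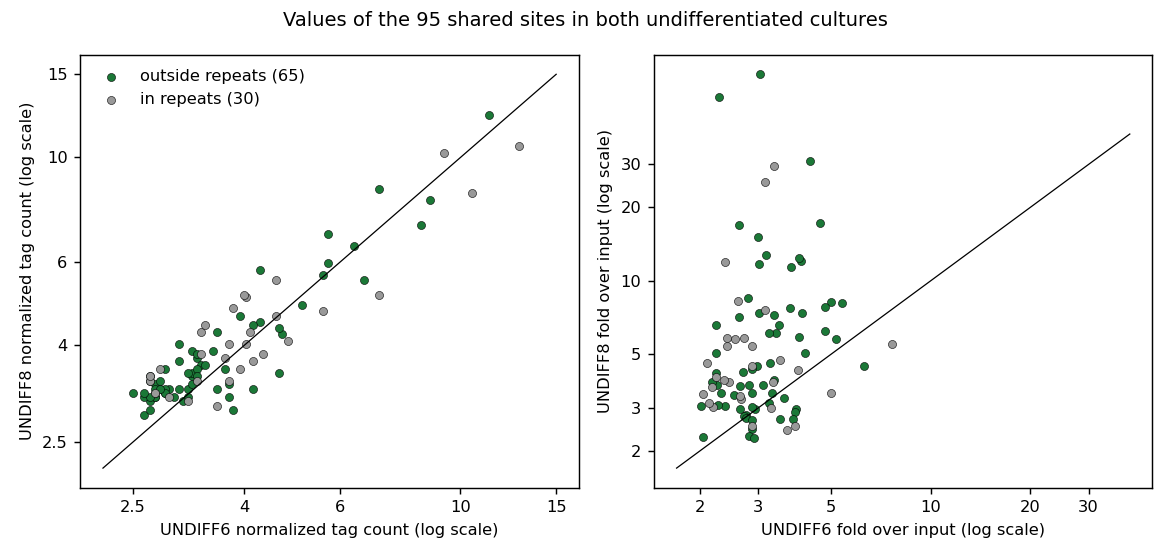
Normalized tag count (left) and fold over input (right) of the 95 shared sites, UNDIFF6 on the x axis and UNDIFF8 on the y axis (log scales), with the line of equal values. Tag counts lie along the line (rho 0.80), folds scatter (rho 0.25), and 77 of the 95 sites have the higher fold in UNDIFF8.

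Outside repeats lay 65 of the shared sites. The first by smaller fold was 17.7 kb upstream of Spef2, a sperm flagellar gene, with 21.5 ChIP and 4 input tags in UNDIFF6 and 23.5 ChIP and 2.9 input tags in UNDIFF8. The site beside the pseudogene Gm5886 followed, with 33.5 ChIP and 6.5 input tags in UNDIFF6 and 25 ChIP and 4.3 input tags in UNDIFF8. It was the one promoter with a peak in both lists, 131 bp upstream of the start site. Near the noncoding gene Gm30158, 44.9 ChIP and 9 input tags in UNDIFF6 stood beside 43.5 and 5.3 in UNDIFF8. A site 158.2 kb downstream of the start of Cdh11, a type II cadherin gene, had 21.5 ChIP and 4.5 input tags in UNDIFF6 and 26.5 and 3.4 in UNDIFF8. The site with the E-box printed above, nearest to G630064G18Rik, had 25.3 ChIP and 5.5 input tags in UNDIFF6 and 25 and 1.4 in UNDIFF8. The others of the first 10 were nearest to 4933430N04Rik, Olfr112, Marchf1, Mab21l1 and Olfr209, with 22.9 to 34.4 ChIP tags in UNDIFF6 and 24 to 34.5 in UNDIFF8.

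In repeats, where reads from several copies can collect, lay the other 30 shared sites. Among these, the one with the most ChIP tags in each list was that of Olfr161, with 103.2 ChIP and 13.5 input tags in UNDIFF6 and 82 and 15 in UNDIFF8. A site in an intron of the noncoding gene Gm3693 had 84.6 ChIP and 17 input tags in UNDIFF6 and 65 and 18.8 in UNDIFF8. The others of the first 5, nearest to Mir6388, Gm15319 and Mup16, had 29.6 to 33.5 ChIP tags in UNDIFF6 and 27.5 to 29 in UNDIFF8. Of the 95 sites, 1 overlapped a DIFF1 peak and 16 a DIFF2 peak, counted if the peak of either UNDIFF list overlapped. Of all UNDIFF6 and UNDIFF8 peaks, 0.597% and 0.913% overlapped a DIFF1 peak, and 5.54% and 8.75% a DIFF2 peak. Repeats held the centres of 86.0% of the DIFF2 peaks. The single DIFF1 site, in an intron of C130026I21Rik, had 90.8 ChIP and 44.5 input tags in UNDIFF6, 95 and 41.6 in UNDIFF8, and 65.6 and 32.5 in DIFF1, or folds of 2.04, 2.29 and 2.02.

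Most UNDIFF peaks were intergenic. Intergenic sequence held 59.1% of the UNDIFF6 peaks (Wilson interval 57.9% to 60.2%) and 64.9% of the UNDIFF8 peaks (63.6% to 66.1%), against 59.2% of genome bases. Introns held 36.9% and 32.1%, against 36.1% of the genome. Promoters, taken as the 1 kb before a start site and the first 100 bp after it, held 58 UNDIFF6 peaks (0.888%, interval 0.687% to 1.15%) and 24 UNDIFF8 peaks (0.438%, 0.295% to 0.651%). The same windows make up 1.19% of the genome, above both intervals. Coding exons held 67 and 42 peaks, or 1.03% and 0.767%, against 1.26% of the genome. The median distance to the nearest start site was 63.2 kb in UNDIFF6 and 79.5 kb in UNDIFF8. Across the cultures, the promoter share averaged 0.663% ± 0.318 in UNDIFF and 0.751% ± 0.0333 in DIFF (SD, n = 2 each), a difference within the UNDIFF spread (exact permutation test, two-sided p = 1). Without UNDIFF8 the difference UNDIFF minus DIFF was 0.137 percentage points.

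**Figure D3:**
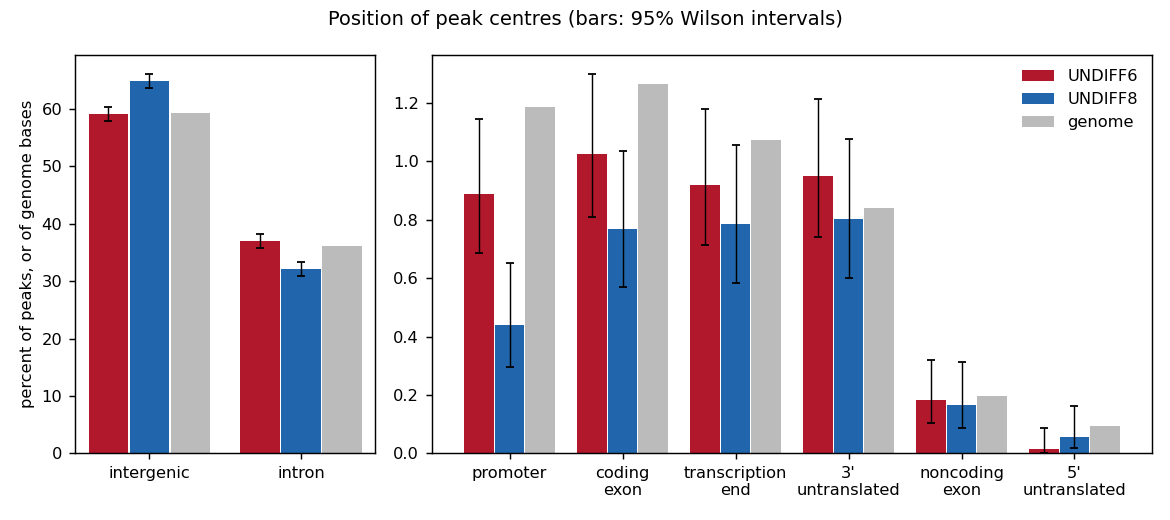
Share of UNDIFF6 and UNDIFF8 peak centres in each position class (y axis, percent) beside the share of genome bases, with 95% Wilson intervals on the peaks. The promoter bars, 0.888% and 0.438%, are below the genome's 1.19%, and the intergenic and intron bars of UNDIFF6 are close to the genome.

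Promoter peaks did not stand above the rest of the lists. Those of UNDIFF6 had 20.6 to 34.4 ChIP tags and a median fold of 3.27, and those of UNDIFF8 22.5 to 67.5 ChIP tags and a median fold of 3.99. At least 4-fold over input were 15 of 58 in UNDIFF6 (25.9%, against 33.2% of the list) and 12 of 24 in UNDIFF8 (50.0%, against 52.9%). The highest scores in UNDIFF6 were at Mir7216 (34.4 ChIP and 15.5 input tags), Gm5886, H2-T3, a nonclassical MHC class I gene (33.5 and 12), Rab40b, a small GTPase gene (32.5 and 15), and Cd34, a gene of progenitor cell surfaces (31.1 and 9). In UNDIFF8 they were at Eif4a3l1 (67.5 and 29.5), Mir344h-1 (54 and 15.5), Esp34 (35 and 6.3), Zfp978 (34.5 and 11.6) and Gm30158 (31.5 and 11.1). Those at Eif4a3l1, Mir344h-1 and Zfp978 had their centres in repeats. Repeats held 6 of the 58 promoter peaks of UNDIFF6 and 6 of the 24 of UNDIFF8. The nearest start site was that of a protein coding gene for 45 of the 58 and 17 of the 24. An E-box was in 2 of the UNDIFF6 promoter peaks, those of Sucla2 and Mei1, and in 1 of UNDIFF8, that of Raet1e.

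Over whole lists, the E-box was as frequent in the peaks as in the genome or less frequent. In the central 195 bp of each peak, CACGTG was found in 139 UNDIFF6 peaks (2.13%, Wilson interval 1.80% to 2.51%) and 67 UNDIFF8 peaks (1.22%, 0.965% to 1.55%). Of all 195-bp windows of the genome, 1.87% held it, inside the UNDIFF6 interval and above that of UNDIFF8. In the DIFF lists the shares were 1.81% and 1.69%. UNDIFF averaged 1.68% ± 0.639 and DIFF 1.75% ± 0.0839 (SD, n = 2 each; exact permutation test, two-sided p = 1), and without UNDIFF8 the difference UNDIFF minus DIFF was 0.382 percentage points. Of the peaks in repeats, 2.43% held the E-box in UNDIFF6 (1.75% to 3.38%) and 1.25% in UNDIFF8 (0.792% to 1.97%). Genome windows in repeats held it in 1.67%, below the UNDIFF6 interval. Outside repeats the shares were 2.04% in UNDIFF6 and 1.21% in UNDIFF8, against 1.98% of such windows. With an E-box anywhere in the peak, peaks had a median fold of 3.28 in UNDIFF6 and 4.48 in UNDIFF8, against 3.41 and 4.14 without. Of 145 E-boxes in UNDIFF6, 37 (25.5%) lay within 25 bp of the peak centre, where an even spread would put 26.8%. In UNDIFF8 these were 26 of 82 (31.7%), against 22.8%. Only 6 UNDIFF6 peaks and 2 UNDIFF8 peaks held 2 or more CACGTG. Pairs spaced by 6 or 7 bases, a spacing known from clock gene promoters, occurred in 0 of them. So few peaks could hold such a pair that this count decides nothing, and pairs with a variant of CACGTG were not counted.

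Soft-masked repeats held the centres of 21.4% of UNDIFF6 and 26.3% of UNDIFF8 peaks, below the 36.4% of the genome that is masked. In the DIFF cultures they held 26.6% and 86.0%. UNDIFF averaged 23.8% ± 3.47 and DIFF 56.3% ± 42.0 (SD, n = 2 each), a difference of -32.5 percentage points, or -2.79 without DIFF2. Both UNDIFF values were below both DIFF values (two-sided exact permutation p = 0.33, again the lowest attainable). Median ChIP tags were 22.9 in UNDIFF6 and 25 in UNDIFF8, in repeats as well as outside them.

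The number of peaks per Mb differed widely between chromosomes, and in the same way in both UNDIFF cultures. Chromosome 8 had 7.49 peaks per Mb in UNDIFF6 and 6.71 in UNDIFF8, chromosome 15 had 7.30 and 7.31, chromosome 6 had 6.06 and 5.56, and chromosome 1 had 4.39 and 3.72. Chromosome 7 had 0.374 in each, chromosome 9 had 0.429 and 0.165, chromosome 10 had 0.449 and 0.299, and chromosome 18 had 0.297 and 0.172. Chromosomes 1, 6, 8 and 15 together held 52.1% of the UNDIFF6 and 56.7% of the UNDIFF8 peaks on 21.3% of the genome. Over the 19 autosomes Spearman's rho between the UNDIFF densities was 0.97. With DIFF1 it was 0.95 for UNDIFF6 and 0.91 for UNDIFF8. All cultures come from the same line, and its chromosome copy numbers were not measured here.

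The tags around the peaks moved with these densities. The local ChIP tags, the ChIP tags of a peak divided by its local fold, had a median of 7.95 in UNDIFF6 and 8.67 in UNDIFF8 on chromosome 8, and 5.73 and 6.68 on chromosome 9. Over the autosomes rho between density and local ChIP tags was 0.83 in UNDIFF6 and 0.81 in UNDIFF8. Between density and the median input tags at the peaks it was 0.60 in UNDIFF6 and -0.17 in UNDIFF8. The local value is taken at called peaks, which all had to pass one tag minimum and be at least 2-fold over the local tags. The part of the local tags in the number of peaks was not tested.

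**Figure D4:**
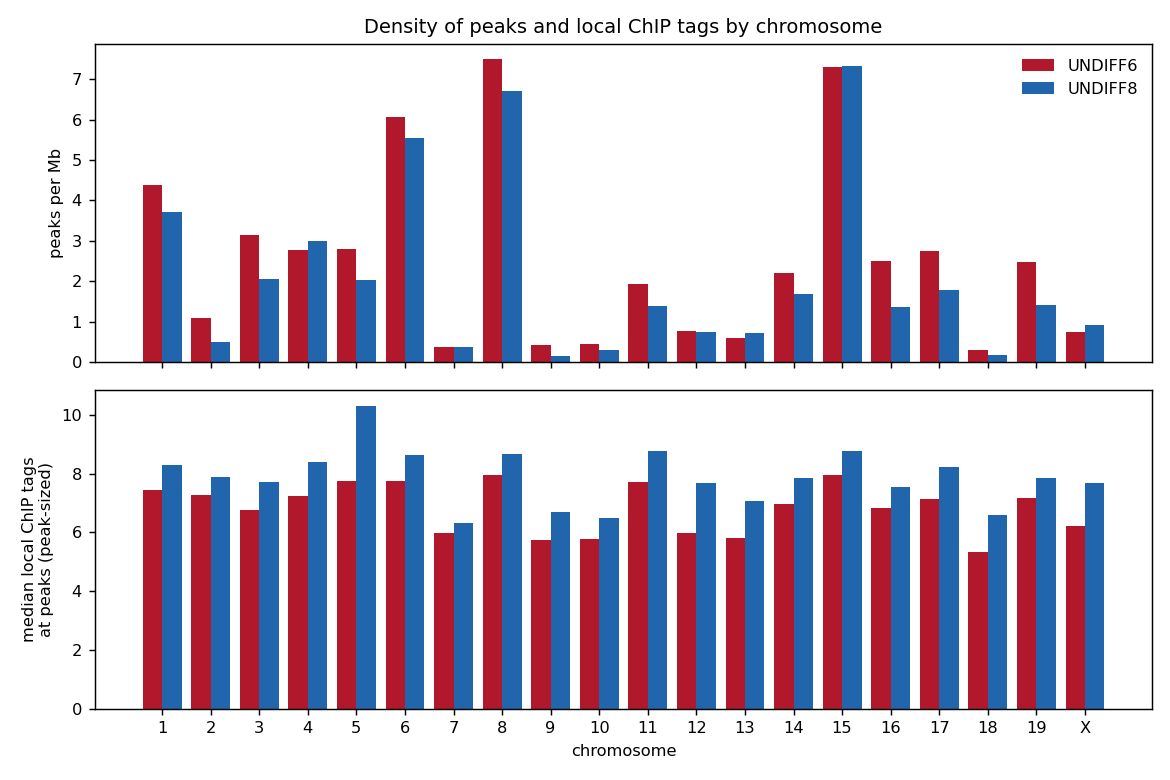
Peaks per Mb of known sequence (top) and median local ChIP tags at the peaks (bottom) for each autosome and the X chromosome, UNDIFF6 left of UNDIFF8. Chromosomes 8 and 15 have 6.71 to 7.49 peaks per Mb in both lists, chromosomes 7, 9, 10 and 18 at most 0.449, and local tags on chromosome 9 (5.73 and 6.68) are below those on chromosome 8 (7.95 and 8.67).

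Some regions, picked with their values in view, had raised tags in the ChIP, the input and the surroundings alike. In 8 windows of 1 Mb, at least 5 peaks in each list had a median of local ChIP tags 1.6 times that of the list or more. They were chr1:85000001-86000000, chrX:31000001-32000000, and 3 neighbouring windows on each of chromosomes 5 and 11. The chromosome 11 region, chr11:110000001-113000000, had 60 peaks in UNDIFF6 and 66 in UNDIFF8. There the medians were 36.8 ChIP and 14 input tags in UNDIFF6 and 38 and 10.9 in UNDIFF8, against 22.5 and 6.5 in UNDIFF6 and 24.5 and 5.8 in UNDIFF8 on the rest of the chromosome. The chromosome 5 region, chr5:3000001-6000000, had 51 and 64 peaks, with medians of 32 ChIP and 12 input tags in UNDIFF6 and 36 and 11.6 in UNDIFF8. DIFF1 had 38 and 46 peaks there, with 29.4 ChIP and 10.3 input tags in the first region and 26.2 and 9 in the second. These 8 windows held 126 UNDIFF6 peaks (1.93%), 175 UNDIFF8 peaks (3.20%) and 12 of the 95 shared sites. Their part in the shared sites was measured by leaving them out, and 83 sites were left.

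Many genes lay nearest to a peak in both cultures. In the gene lists below, a gene is called near a peak when its start site is the nearest, at any distance. Of 21000 protein coding genes, 2646 (12.6%) lay nearest to an UNDIFF6 peak, 1828 (8.7%) to an UNDIFF8 peak and 984 (4.69%) to a peak in both. The 984 are 37.2% of the UNDIFF6 genes and 53.8% of the UNDIFF8 genes. These genes own long stretches of sequence: the sequence nearest to a gene had a median of 0.257 Mb for the 984, against 0.0423 Mb for all protein coding genes.

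The 10 protein coding genes with the most peaks each had at least 0.627 Mb of nearest sequence. Marchf1, which encodes a membrane ubiquitin ligase, had 25 peaks in UNDIFF6 and 33 in UNDIFF8 along 1.06 Mb, or 23.5 and 31.1 per Mb, against 7.49 and 6.71 for chromosome 8. Cdh9, a type II cadherin gene, had 23 and 27 peaks, and Csmd3, which encodes a large membrane protein, 19 and 26. Cntnap2, of the neurexin family, had 21 in each, and Sgo2b, of the shugoshin family that protects chromosome cohesion, 20 and 17. The synaptic gene Lrrtm1 had 16 and 21 peaks, the matrix proteoglycan gene Spock3 15 and 20, and the ephrin receptor gene Epha7 14 and 21. Trps1, a GATA-type repressor, had 17 in each, and Cdh6 16 and 18. Peaks of these 10 genes had medians of 22 to 22.9 ChIP tags in UNDIFF6 and 24 to 26 in UNDIFF8. Per Mb, all 10 were above their chromosome in both lists, Cdh6 least (8.20 and 9.22, against 7.30 and 7.31 on chromosome 15). Epha7 had 11.9 and 17.8 per Mb, against 2.77 and 3.01 on chromosome 4. The genes were chosen for their number of peaks, so these densities are a description.

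**Figure D5:**
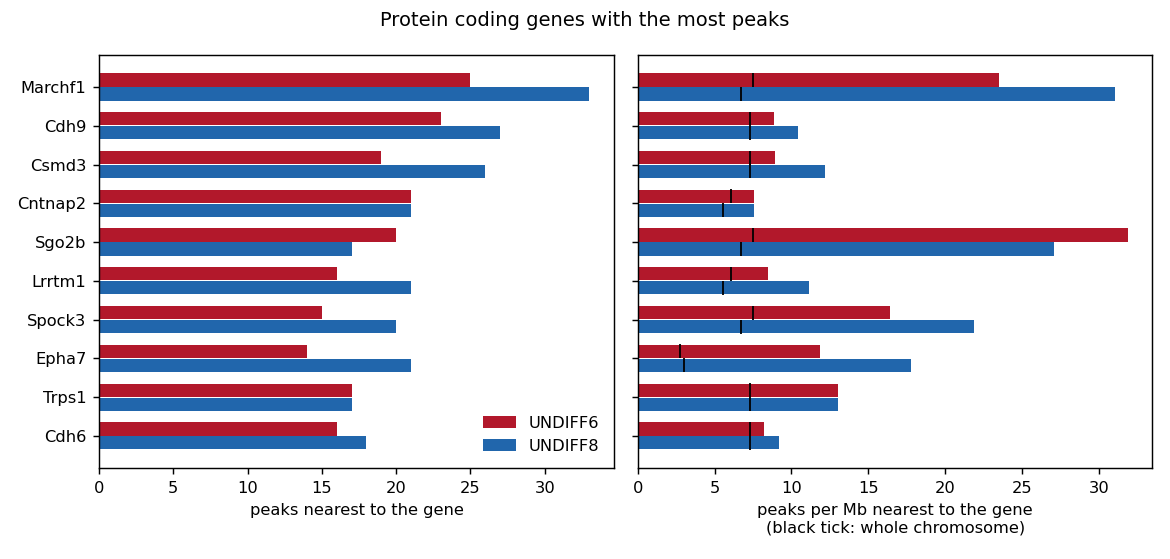
Peaks nearest to the 10 protein coding genes with the most peaks over both lists (left) and peaks per Mb of the sequence nearest to each gene (right), UNDIFF6 above UNDIFF8, with a tick for the whole chromosome. Marchf1 and Sgo2b exceed 20 peaks per Mb in both cultures, while Cntnap2 has 7.56 in each, against 6.06 and 5.56 on chromosome 6.

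Of the 4 activators (Arntl, Arntl2, Clock and Npas2) and the 5 period and cryptochrome genes, 0 were nearest to a peak in UNDIFF6 or UNDIFF8, against 12.6% and 8.7% of all genes. The peak closest to a start site of Arntl was 655 kb away in UNDIFF6 and 2763 kb in UNDIFF8. For Arntl2 these distances were 573 and 561 kb, and for Clock 73.1 and 101 kb. For Per1 they were 327 and 2052 kb, for Per2 28.5 and 2463 kb, for Per3 818 and 2409 kb, for Cry1 803 and 2405 kb and for Cry2 2578 and 5219 kb. Npas2 was the closest, with a peak 5.74 kb from its start site in UNDIFF6 and 28.2 kb in UNDIFF8, both nearer to Mir6349. Of the 5 REV-ERB and ROR genes, 1 was near an UNDIFF6 peak, and of the 8 output genes 2, against 12.6% of all genes. In UNDIFF8 these counts were 0, against 8.7%. Rorb had 5 peaks in UNDIFF6 on 0.685 Mb of nearest sequence, and Hlf and Nfil3 had 1 each. Median nearest sequence was 0.0765 Mb for the activators and 0.0305 Mb for the period and cryptochrome genes. It was 0.145 Mb for the REV-ERB and ROR genes and 0.0561 Mb for the output genes, against 0.0423 Mb for all. The differences were not tested. A site under the score minimum is not listed, so these counts do not show that the genes were unbound.

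Of 10 prolactin signalling genes, 4 were near an UNDIFF6 peak, 2 near an UNDIFF8 peak and 2 near both, against 12.6%, 8.7% and 4.69% of all protein coding genes. The sequence nearest to a gene had a median of 0.0598 Mb in this list, against 0.0423 Mb for all genes. Prlr, the prolactin receptor gene, had 3 peaks in UNDIFF6 with 22.5 to 28.7 ChIP tags and 5 in UNDIFF8 with 22 to 26.5. Ghr, for the growth hormone receptor, had 6 peaks with 20.1 to 26.3 ChIP tags in UNDIFF6 and 4 with 23.5 to 27 in UNDIFF8. Jak2, the kinase that these receptors signal through, and Socs3, which restrains it, had 1 peak each in UNDIFF6 and 0 in UNDIFF8. No site of Prlr or Ghr was shared between the cultures. Prlr and Ghr both lie on chromosome 15, which had 7.30 and 7.31 peaks per Mb. Their nearest sequence was 0.363 and 0.339 Mb, above the median of the list, and its part in their peaks was not tested.

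Of 20 milk fat genes, 6 were near an UNDIFF6 peak, 4 near an UNDIFF8 peak and 4 near both, against the same 12.6%, 8.7% and 4.69%. Their median nearest sequence was 0.0807 Mb. The 4 near both had more, with 0.147 Mb for Lpl, 0.582 for Gpam, 0.219 for Vldlr and 0.803 for Ppargc1a. Lpl, the lipoprotein lipase gene, had 5 and 3 peaks, and 1 of its sites was shared, 37.8 kb downstream of the start site. It had 21.5 ChIP and 7.5 input tags in UNDIFF6 and 24.5 and 9.2 in UNDIFF8. Gpam, which starts glycerolipid synthesis, had 2 peaks in each list, Vldlr, a lipoprotein receptor gene, 2 and 1, and the coactivator gene Ppargc1a 3 and 1. Of the 12 milk protein genes 0 were nearest to a peak in either list, against 12.6% and 8.7% of all genes, and their median nearest sequence was 0.0435 Mb. The difference was not tested.

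Of 14 genes of the EGF receptor family and its ligands, 5 were near an UNDIFF6 peak, 4 near an UNDIFF8 peak and 3 near both, against 12.6%, 8.7% and 4.69% of all genes, with a median nearest sequence of 0.0979 Mb. Erbb4, the receptor tied to mammary differentiation, had 10 and 9 peaks, Nrg1, its ligand, 7 and 3, and the ligand gene Areg 1 and 1. Their nearest sequence was 1.28, 0.437 and 0.104 Mb, in the same order. Nrg1 had a shared site 9.59 kb downstream of a start site, with 24.4 ChIP and 8.5 input tags in UNDIFF6 and 25 and 7.2 in UNDIFF8. Of 16 cell cycle genes, Cdk14 was the one near both lists, with 7 and 10 peaks in the raised region of chromosome 5. Its peaks had 28.7 to 53.1 ChIP and 8.5 to 26 input tags in UNDIFF6 and 32 to 53.5 ChIP and 3.4 to 20.3 input tags in UNDIFF8. Of 12 insulin and IGF signalling genes, 3 were near an UNDIFF6 peak and 2 near an UNDIFF8 peak, and 0 near both. Of 12 genes of superoxide and peroxide removal these counts were 0 and 1, and of 14 mammary lineage factors and keratins 3 and 0. Of the 16 cell cycle genes, 3 were near an UNDIFF6 peak and 2 near an UNDIFF8 peak. Over all protein coding genes the shares were 12.6% and 8.7%, and the differences of these 4 short lists from them were not tested.

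Cadherins join cells through calcium-dependent contacts. The listed cadherins had the most genes near both of any list, 13 of 20 (65.0%, against 4.69% of all genes). They had 94 peaks in UNDIFF6 and 119 in UNDIFF8 on 16.3 Mb of nearest sequence, or 5.77 and 7.30 per Mb. Chromosome 15, which holds Cdh6, Cdh9, Cdh10, Cdh12 and Cdh18, had 7.30 and 7.31 peaks per Mb, and these 5 genes together had 66 peaks in UNDIFF6 and 95 in UNDIFF8 on 7.33 Mb, or 9.00 and 13.0 per Mb. The 7 cadherins on chromosome 8 had 20 and 17 peaks, or 5.78 and 4.91 per Mb, against 7.49 and 6.71 for that chromosome. On chromosome 1, 3 cadherins had 6 and 4 peaks on 4.45 Mb, or 1.35 and 0.899 per Mb, against 4.39 and 3.72. The median sequence per cadherin was 0.468 Mb, against 0.0423 Mb for all genes. Cdh9 had 20.1 to 25.8 ChIP tags at its 23 peaks in UNDIFF6 and 21.5 to 29 at its 27 peaks in UNDIFF8. Cdh6 had 1 shared site, with 23.4 ChIP and 6.5 input tags in UNDIFF6 and 25.5 and 7.7 in UNDIFF8. Cdh1, the epithelial E-cadherin gene, was near 0 peaks in both lists.

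The number of peaks was 6534 and 5475 in the UNDIFF cultures, against 13683 and 185417 in the DIFF cultures. On the log2 scale UNDIFF averaged 12.55 ± 0.18 and DIFF 15.62 ± 2.66 (SD, n = 2 each), a difference of -3.07. Both UNDIFF counts were below both DIFF counts (two-sided exact permutation p = 0.33, again the lowest attainable). Without DIFF2 the difference was -1.19. The lowest findPeaks score was 14 in DIFF2, against 23 in UNDIFF6 and 24 in UNDIFF8 and DIFF1. With only peaks that scored at least 24, the difference was -2.23. The paper states that a DIFF pair was sequenced far deeper and that only part of its reads was used. Tag totals also differed between the lists as given above. The part of depth and totals in the numbers of peaks was not tested.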

How the data were processed

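BMAL1 ChIP and input DNA of 4 HC11 cultures (UNDIFF6, UNDIFF8, DIFF1, DIFF2) were sequenced, and per the submitters' processing notes FastQC 0.11.7, Bowtie2 2.2.9 and HOMER 4.10 were used. The authors called peaks per culture against its own input with findPeaks (at least 2-fold over input, false discovery rate 0.01), on GRCm38. The limits for fold over local tags and for expected unique tag positions were set at 2 as well. The paper states that calling was less strict than HOMER's defaults and that false positives likely rose. The deposited lists give ChIP and input tags as a signal scaled to equal library totals, a normalized tag count, fold ratios over input and over the local surroundings, p-values, a findPeaks score and a focus ratio given as a fraction. Library totals were inferred from the normalized tag count, taken as tags per 10 M, HOMER's default, which the file headers do not state.

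Peak centres were assigned to the nearest start site of curated RefSeq transcripts (45756), classed by position, and searched for CACGTG on both strands. Peaks were shared if they overlapped by at least 1 bp (bedtools 2.31.1). Groups were compared by exact permutation over cultures, after checks on simulated data. Wilson intervals (scipy 1.17.1) cover counting error only. Named were the 10 shared sites outside repeats and 5 in repeats with the highest smaller fold, the 10 genes with the most peaks, the 5 peaks per list highest in score and in fold (of which the first are described), the 5 promoter peaks with the highest scores, and list genes with peaks in both cultures or of the clock; any other gene was named with its values already known. The members and the 13 gene lists were chosen with earlier results of these data known.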

Additional observations from a re-analysis of the deposited data

How the results depend on the processing

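Of 52 alternatives, 3 turned the direction of a difference and 3 moved a count by over 1.5 times. The other 46 kept the direction of a difference, or a count within 1.5 times, but the size of a difference could change several times over: UNDIFF minus DIFF in log2 median fold was -0.06 with peaks at least 4-fold over input, against -0.33, and in promoter share -0.38 percentage points outside repeats, against -0.088. With peaks at least 4-fold over input, 14 sites were shared in place of 95 and 387 genes in place of 984; with centres at most 1 kb apart, 214 sites were shared. The cause was not tested beyond the smaller or wider sets that these settings make. Without the windows with raised tags, an alternative chosen after seeing the data, 83 sites and 964 genes were left. Without UNDIFF replicate 8 the difference UNDIFF minus DIFF turned to 0.137 percentage points for promoters and 0.382 for the E-box, and with CACGTG or CACGTT it was 0.48 for the E-box (exact permutation test, two-sided p = 0.67). Leaving out each replicate gave -0.31 to 0.137 percentage points for promoters, -0.47 to -0.19 for the log2 median fold, -0.52 to 0.382 percentage points for the E-box, -62.2 to -2.79 for repeats and -4.95 to -1.19 for the log2 number of peaks. No paired analysis was possible because the UNDIFF and DIFF cultures share no replicate numbers. Inputs of few tags and scores near the minimum limit the precision of single folds.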
